A study of Mus musculus with 4 samples.

Results

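The complement genes *C3*, *C4b*, *C1ra*, *C1rb*, *C1s1*, *C1s2*, *Cfb*, *Serping1* and *Cd55* were followed in osteocyte-like cells with and without mechanical loading. These 9 genes were found by name among the 55450 genes of the count data, each name in 1 row. They were selected on the measured difference between loaded and unloaded cells, that is, with the fold changes of these 4 libraries known, so their fold changes are given as a description, with no p-value. MLO-Y4 is a mouse cell line derived from long bone osteocytes. It was grown in DMEM with fetal and newborn calf serum. In the loaded group, cells on collagen-coated 6-well plates with a silicone membrane were stretched equiaxially for 12 h at 0.5 Hz and 20% strain. The unloaded group spent the same 12 h in the incubator of the loading system on ordinary 6-well culture plates, so stretching and the kind of plate cannot be told apart. Each group had 2 libraries of rRNA-depleted total RNA. The sources name 2 replicates per group but not whether these were separate cultures, so the p-values below measure only the spread between these libraries. In bulk RNA, fewer cells expressing a gene and less RNA per cell cannot be told apart.

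Complement is a cascade of plasma and cell-surface proteins that marks targets for uptake or lysis. In the classical pathway, the recognition protein C1q activates the serine proteases C1r and C1s, which cut C4 and C2 to form an enzyme that cleaves C3. In the alternative pathway, factor B, encoded by *Cfb*, supplies the protease of a further enzyme that cleaves C3, so C3 is the component on which the pathways meet. *Serping1* encodes C1 inhibitor, which blocks C1r and C1s, and *Cd55* encodes decay-accelerating factor, a membrane protein that takes the C3-cleaving enzymes apart. Liver is the main source of the plasma proteins, but mesenchymal cells, including cells of the bone lineage, also transcribe complement genes.

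The genes of the C1 proteases lie together on mouse chromosome 6, and those of factor B, C2 and C4 lie together on chromosome 17 (GRCm38). *C1ra*, *C1rb*, *C1s1*, *C1s2* and the related protease gene *C1rl* occupy 143 kb of chromosome 6 between 124493113 and 124636085. *C4b*, *C4a*, *Cfb* and *C2* occupy 170 kb of chromosome 17 between 34728380 and 34898265. *C3* lies elsewhere on chromosome 17, on the minus strand between 57203970 and 57228136. Several of these genes are near-identical copies. The longest annotated transcripts of *C1ra* and *C1rb* were 98.1% identical over 2427 aligned bases, with an identical run of 757 bases, and those of *C1s1* and *C1s2* were 96.2% identical over 2657 bases. Reads inside an identical run could be counted for either copy, so the split between the copies is uncertain.

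Promoter windows from RefSeq (GRCm38.p6), each with 250 bases before and 50 bases after an annotated start, were matched for 6 of the 9 genes, with 7 windows. Motifs for factors known to act on complement genes were searched on both strands. They were the C/EBP motif TTGCNNAA, the STAT motif TTCNNNGAA, the interferon-stimulated response element, the antioxidant response element TGACNNNGC and an NF-kB motif. The 250 bases upstream of *C3* (chr17:57228137-57228386, minus strand) are shown because this gene differed most among the 9, and the match to the C/EBP motif is in capitals. The stretch that *C1ra* (chr6:124512637-124512661, plus strand) and *C1rb* (chr6:124570295-124570319, plus strand) share is shown because these copies also carried matches, first to the C/EBP motif on the opposite strand and then to the STAT motif.
C3: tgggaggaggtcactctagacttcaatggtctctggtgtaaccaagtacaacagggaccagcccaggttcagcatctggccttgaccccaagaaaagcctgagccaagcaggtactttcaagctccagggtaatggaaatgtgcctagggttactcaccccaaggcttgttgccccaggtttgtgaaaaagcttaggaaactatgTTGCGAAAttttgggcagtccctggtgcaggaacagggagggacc
C1ra: TTATGCAAatgcttcaTTCCCTGAA
C1rb: TTATGCAAatgcttcaTTCCCTGAA

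The *C3* match began 45 bases upstream of the start. The 25 bases shared by the C1r genes began 16 bases downstream of the RefSeq start of *C1ra* and 135 bases upstream of the RefSeq start of *C1rb*. The GENCODE M21 annotation starts these genes further upstream, at 124512405 and 124570294, so that by it the shared bases lay inside both genes. One of the *C1s1* windows held a C/EBP match 242 bases upstream, and the windows of *C1s2* and *Cd55* held no match to any of the 5 motifs. Among all 32851 windows, 10.8% held the C/EBP motif, 8.30% the STAT motif, 3.44% the interferon-stimulated response element, 12.4% the antioxidant response element and 8.46% the NF-kB motif. A match describes the letters of the window and is not a bound site.

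*C3* was the most abundant of the 9 genes per length, followed by the C1 proteases, and the complement inhibitors *Serping1* and *Cd55* were not counted at all. Levels between genes are compared in TPM (a scaled count per exon length, with the same total in every library), and each value is the mean ± SD of 2 libraries. In unloaded cells *C3* stood at 277 ± 4.57 TPM, *C1s1* at 161 ± 1.62 TPM and *C1ra* at 114 ± 1.50 TPM. The minor copies followed with 15.5 ± 1.06 TPM for *C1rb* and 15.4 ± 1.75 TPM for *C1s2*, and these neighbours did not differ beyond their spread. *Cfb* reached 4.35 ± 0.0765 TPM and *C4b* 0.223 ± 0.0394 TPM. In loaded cells *C3* again had the highest mean, at 130 ± 2.75 TPM, followed by *C1s1* (92.5 ± 51.4 TPM) and *C1ra* (88.8 ± 4.43 TPM). *C1s1* overlapped with both, at 129 and 56.1 TPM in loaded replicates 1 and 2. In the same libraries *C3* was at 132 and 128 TPM and *C1ra* at 85.6 and 91.9 TPM. Next came *C1s2* (11.2 ± 0.864 TPM) and *C1rb* (10.7 ± 1.17 TPM), which also overlapped, then *Cfb* (3.51 ± 1.93 TPM) and *C4b* (0.187 ± 0.153 TPM). *Serping1* and *Cd55* had 0 counts in each of the 4 libraries, which allows at most 0.0930 to 0.103 CPM (a count scaled to library size, but not to gene length) in a library for a floor of 3 counts. This floor covers counting error only. *C3*, *C1s1* and *C1ra* together made up 92.4% to 94.0% of the summed TPM of the 9 genes in each library. *C3* alone made up 47.2% and 47.1% in unloaded and 35.1% and 42.8% in loaded replicates 1 and 2.

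**Figure D1:**
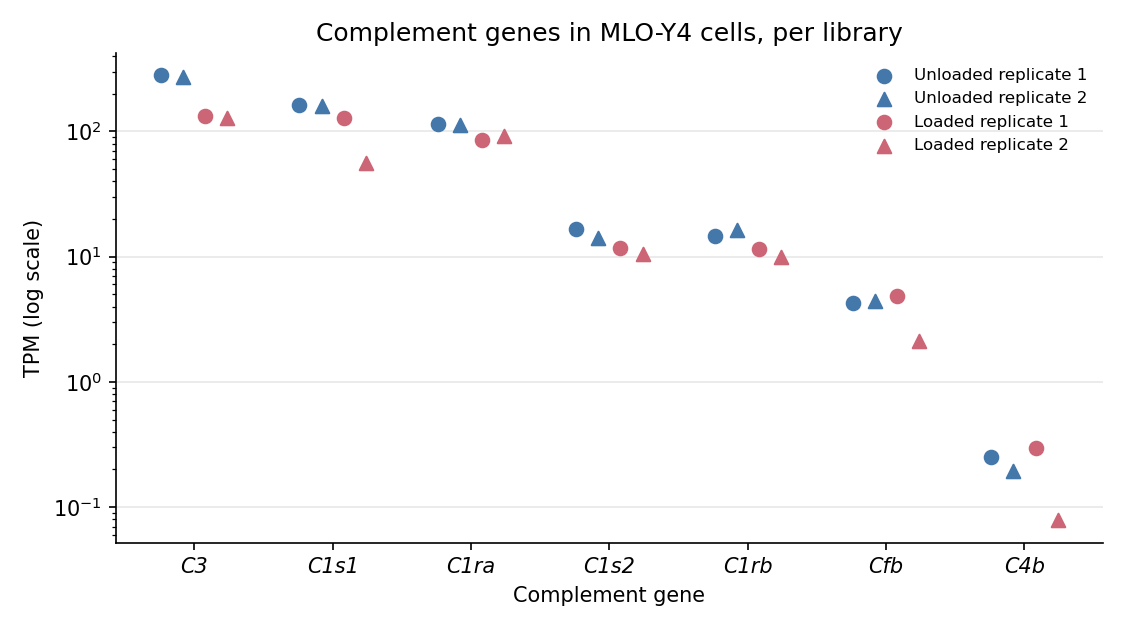
Level of each detected complement gene (TPM, log scale) in the 4 libraries, with unloaded libraries in blue and loaded libraries in red. The *C3* points lie at 281 and 274 TPM in unloaded and at 132 and 128 TPM in loaded libraries, and loaded replicate 2 lies apart from loaded replicate 1 for *C1s1*, *Cfb* and *C4b*.

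*C3* was lower in loaded than in unloaded cells, with close agreement between replicates. Its counts were 12123 and 12686 in unloaded and 6438 and 5872 in loaded libraries. In CPM this was 417 and 419 CPM in unloaded against 200 and 197 CPM in loaded cells, so the groups did not overlap. Loaded cells had a 2.11-fold lower mean, and the log2 fold change was -1.08 (SE 0.06). The log2 difference between replicates was 0.02 in the loaded and 0.00408 in the unloaded pair, far below the difference between the groups. The fold change ranged from -1.08 to -1.07 on the log2 scale over all processing alternatives that gave one.

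*C1ra*, which encodes a mouse C1r protease, was lower in loaded cells by a smaller margin. It had 2883 and 3031 counts in unloaded and 2429 and 2450 counts in loaded libraries. Its level was 99.6 ± 0.528 CPM in unloaded and 78.7 ± 4.90 CPM in loaded cells (SD, n = 2 each), without overlap, and the log2 fold change was -0.34 (SE 0.09). Its copy *C1rb* had 300 and 354 counts in unloaded and 266 and 214 counts in loaded libraries, or 10.3 and 11.7 CPM against 8.24 and 7.18 CPM. Its log2 fold change was -0.51 (SE 0.17). Since reads can be assigned to either copy, the counts of *C1ra* and *C1rb* were also summed, which gave 110.7 ± 1.48 CPM in unloaded and 86.5 ± 4.14 CPM in loaded cells (n = 2 each) and a log2 ratio of -0.36.

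*C1s1*, which encodes the C1s protease that cuts C4 and C2, was lower mainly in 1 of the loaded libraries. Its counts were 4268 and 4507 in unloaded libraries, 3837 in loaded replicate 1 and 1571 in loaded replicate 2. In CPM the values were 147 and 149 in unloaded cells, 119 in loaded replicate 1 and 52.7 in loaded replicate 2. Both loaded values lay below both unloaded values, but the loaded replicates differed 2.26-fold from each other. The log2 fold change was -0.78 (SE 0.34), -0.31 without loaded replicate 2 and -1.48 without loaded replicate 1. Among 9685 genes with a mean of at least 10 CPM, 58 genes (0.599%) differed between the loaded replicates by as much as *C1s1* or more. The near-identical copy was not higher in that library. *C1s2* had 371 and 338 counts in unloaded and 298 and 251 counts in loaded libraries, a log2 fold change of -0.44 (SE 0.16), and the sum of *C1s1* and *C1s2* was 128 CPM in loaded replicate 1 and 61.1 CPM in loaded replicate 2, against 159.7 and 159.9 CPM in unloaded cells.

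*Cfb*, which encodes the protease factor B, and *C4b*, which encodes the component C4 cut by C1s, overlapped between the groups. *Cfb* had 102 and 112 counts in unloaded libraries, 131 in loaded replicate 1 and 54 in loaded replicate 2. Loaded replicate 1 was thus above and loaded replicate 2 below both unloaded libraries (4.06 and 1.81 CPM, against 3.51 and 3.70 CPM). The log2 fold change of *Cfb* was -0.29 (SE 0.41), 0.17 without loaded replicate 2 and -0.99 without loaded replicate 1. *C4b* had 12 and 10 counts in unloaded libraries, 16 in loaded replicate 1 and 4 in loaded replicate 2. Its log2 fold change was -0.22 (SE 0.83), 0.41 without loaded replicate 2 and -1.44 without loaded replicate 1. With the counts of the near-identical copy *C4a* added, the log2 ratio was 0.15 and the groups overlapped. The direction for *Cfb* and *C4b* therefore rested on loaded replicate 2.

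*Cfb* shares 2246 of its 2825 exonic bases, on the same strand, with the annotated read-through gene *Gm20547*, which also shares exons with *C2*, the neighbour of *Cfb*. *C2* encodes the protease cut by C1s and had 120 counts in each unloaded library, 95 in loaded replicate 1 and 22 in loaded replicate 2. *Gm20547* had 6 and 2 counts in unloaded libraries, 0 in loaded replicate 1 and 80 in loaded replicate 2. The sum of *Cfb* and *C2* was 7.64 and 7.66 CPM in unloaded cells, 7.0 CPM in loaded replicate 1 and 2.55 CPM in loaded replicate 2. With *Gm20547* added, loaded replicate 2 reached 5.23 CPM, against 7.85 and 7.72 CPM in unloaded cells and 7.0 CPM in loaded replicate 1. Whether the assignment of reads to *Gm20547* lowered the values of *Cfb* and *C2* in that library was not tested beyond these sums.

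**Figure D2:**
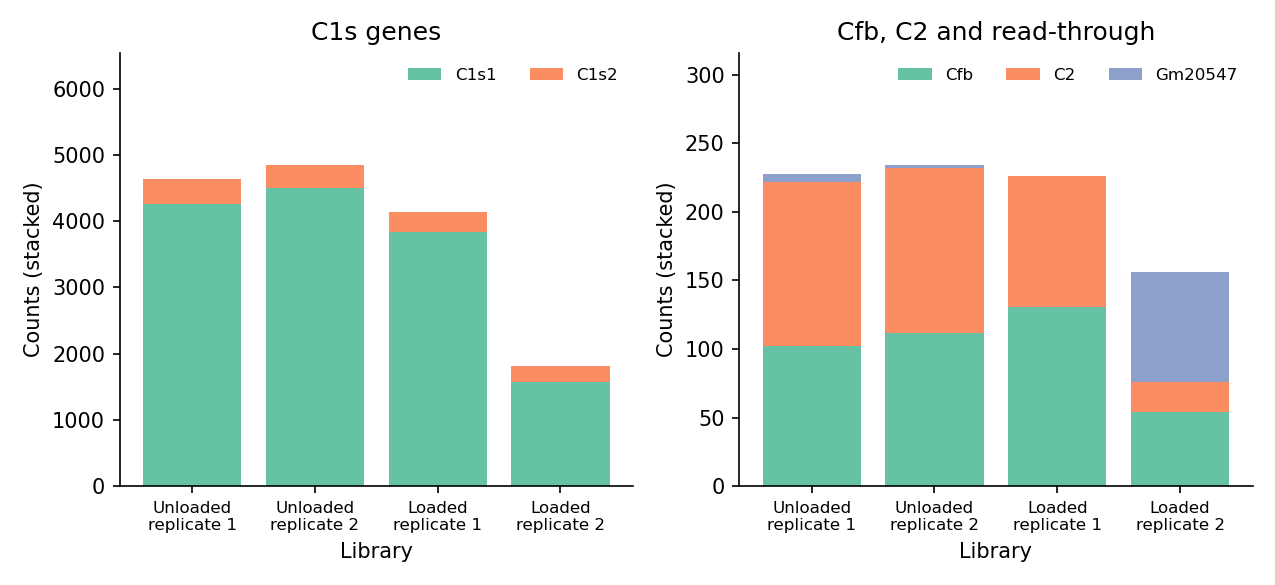
Counts per library (stacked bars) of *C1s1* and *C1s2* on the left and of *Cfb*, *C2* and the read-through gene *Gm20547* on the right. Loaded replicate 2 has the lowest bar in both panels, and 80 of its counts on the right belong to *Gm20547*.

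Of the 9 genes, 7 passed the filter on low counts. The log2 fold changes of these 7 were all negative, with a median of -0.44, against a median of -0.01 over all 16269 genes tested. In 5 of them (*C3*, *C1ra*, *C1rb*, *C1s1* and *C1s2*) both loaded libraries lay below both unloaded libraries, as they did in 24.5% of all genes tested. The edgeR quasi-likelihood fit called 1 of them, *C3*, lower at an adjusted p under 0.01, beside 0.0861% of all genes called lower and 0.0983% called in either direction. DESeq2 also called *C3* alone, beside 1.55% of its genes called lower. Nothing is read from these counts, because the same contrast was known when the genes were selected.

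The loading difference of *C3* was set against that of each other detected gene. The log2 fold change of *C3* was lower by 0.74 than that of *C1ra*, by 0.56 than that of *C1rb*, by 0.64 than that of *C1s2* and by 0.29 than that of *C1s1*. Against the alternative pathway gene *Cfb* the difference was -0.78, and against *C4b* it was -0.85. No difference could be given for the inhibitors *Serping1* and *Cd55*, which were at 0 counts. The ratio of *C3* to *C1ra* within a library, as a log2 ratio of CPM, was 2.07 and 2.06 in unloaded and 1.41 and 1.26 in loaded replicates 1 and 2. The same ratio was also lower in both loaded libraries for *C1rb* (5.33 and 5.16 against 4.59 and 4.77) and for *C1s2* (5.02 and 5.22 against 4.42 and 4.54). For *C1s1* the loaded libraries lay on either side of the unloaded ones, with log2 ratios of 1.51 and 1.49 in unloaded cells, 0.75 in loaded replicate 1 and 1.90 in loaded replicate 2. For *Cfb* the log2 ratio was 6.87 and 6.80 in unloaded cells, 5.60 in loaded replicate 1 and 6.71 in loaded replicate 2, so that loaded replicate 2 lay close to the unloaded libraries. For *C4b* the log2 ratio was 9.77 and 10.05 in unloaded cells, 8.47 in loaded replicate 1 and 9.94 in loaded replicate 2. Loaded replicate 2 thus lay between the unloaded libraries for *C4b*. The excess of the *C3* difference was seen clearly in both loaded libraries only beside *C1ra*, *C1rb* and *C1s2*. In loaded replicate 2 it was not seen beside *C1s1* or *C4b*, and it was slight beside *Cfb*.

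**Figure D3:**
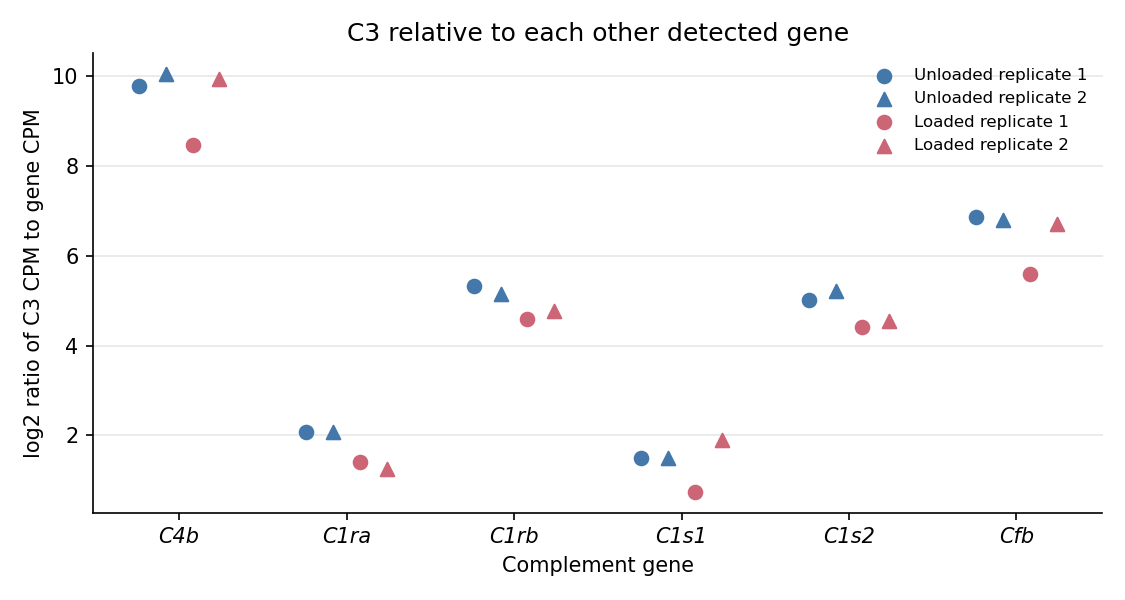
The log2 ratio of *C3* CPM to the CPM of each other detected complement gene in the 4 libraries. For *C1ra*, *C1rb* and *C1s2* both loaded libraries (red) lie below both unloaded libraries (blue), while for *C1s1* loaded replicate 2 lies above them.

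The other genes of the system were taken from 7 lists of complement genes by role, with 50 genes beside the 9. Of these, 16 had 0 counts in all libraries, among them the C1q genes *C1qa*, *C1qb* and *C1qc*, so that the recognition partner of the C1 proteases was not detected at this depth. Another 25 passed the filter and were tested, and 17 of them had a negative and 8 a positive log2 fold change, with a median of -0.23. None of the 25 was called by edgeR at a Benjamini-Hochberg adjusted p under 0.01, while 8 had an unadjusted p under 0.05, beside 14.3% of all genes tested. DESeq2 called 3 of the 17 to which it gave an adjusted p, all lower in loaded cells, beside 1.55% of its genes called lower. Both loaded libraries lay below both unloaded libraries in 14 of the 25 and above them in 4, beside 24.5% and 22.1% of all genes tested.

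Among the soluble regulators, *Clu*, which encodes clusterin, an inhibitor of the lytic complex, was at 105 CPM in both unloaded libraries and at 70.1 and 80.3 CPM in loaded libraries. Its log2 fold change was -0.48 (SE 0.09), with an adjusted p of 0.105 in edgeR and 0.00242 in DESeq2. *Cfi*, which encodes a protease that cuts C3b and C4b, and *Vtn*, which encodes vitronectin, had 0 counts in all libraries.

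Among the receptors, *Itgb2*, which encodes the beta chain of complement receptors 3 and 4, was at 2885 and 2622 counts in unloaded and 1496 and 1289 counts in loaded libraries. This was 92.9 ± 9.06 CPM against 44.8 ± 2.20 CPM (SD, n = 2), a log2 fold change of -1.05 (SE 0.11), with an adjusted p of 0.0210 in edgeR and 2.67e-13 in DESeq2. The genes of its alpha partners, *Itgam* and *Itgax*, had at most 4 counts in any library. *Itgam* shares 3450 of its 5024 exonic bases, on the same strand, with another annotated gene. Whether reads of *Itgam* were counted for that gene was not tested. *C3ar1*, the receptor of the C3 fragment C3a, named here after its values were seen, pointed the other way, with 17.5 and 12.5 CPM in unloaded and 23.9 and 27.8 CPM in loaded libraries. Its log2 fold change was 0.79 (SE 0.19), which did not pass the threshold (adjusted p of 0.144 in edgeR and 0.0117 in DESeq2). The most abundant receptor, *Lrp1*, which clears protease complexes, was at 1386 ± 12.7 CPM in unloaded and 1185 ± 7.47 CPM in loaded cells (n = 2 each), a log2 fold change of -0.23 (adjusted p = 0.121 in edgeR). *C1qbp*, a mitochondrial protein that binds C1q, had a log2 fold change of 0.15 (adjusted p = 0.436 in edgeR).

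Of the 8 membrane regulators, 3 had 0 counts in all libraries, namely *Cd55*, *Cd55b* and *Susd4*. *Cr1l*, the rodent regulator Crry, was the most abundant, at 60.2 and 60.5 CPM in unloaded and 63.7 and 54.6 CPM in loaded libraries. Its groups overlapped, and its log2 fold change was -0.03 (SE 0.11; adjusted p = 0.938 in edgeR). *Cd46*, a cofactor for the cleavage of C3b, was at 7.14 ± 1.19 CPM in unloaded and 8.14 ± 0.979 CPM in loaded cells (n = 2 each). None of the 5 membrane regulators tested was called by edgeR, beside 0.0983% of all genes tested. DESeq2 gave 3 of them an adjusted p and called none, beside 1.55% of its genes called lower. None had an unadjusted p under 0.05 in edgeR, beside 14.3% of all genes tested.

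In the classical pathway, the C1r-like protease gene *C1rl* was at 12.8 ± 3.28 CPM in unloaded and 7.14 ± 0.537 CPM in loaded cells (n = 2 each), and its log2 fold change was -0.84 (adjusted p = 0.172 in edgeR). The log2 fold change of *C2* was -1.13 (SE 0.59; adjusted p = 0.450 in edgeR), with the replicate difference described above. In the lectin pathway, which starts from sugar-binding proteins, the protease gene *Masp1* was at 64.8 ± 1.15 and 61.7 ± 2.02 CPM, a log2 fold change of -0.07 (adjusted p = 0.778 in edgeR). The collectin gene *Colec12* was at 78.8 ± 4.13 and 59.2 ± 5.91 CPM, a log2 fold change of -0.41 (adjusted p = 0.170 in edgeR). *Cfp*, which encodes properdin, the stabilizer of the alternative pathway enzyme, had 76 to 81 counts in unloaded and 63 to 115 in loaded libraries, and *Cfd*, which encodes factor D, had 3 counts in 1 library. The terminal pathway, whose proteins form the lytic pore, was nearly silent. None of its 7 genes reached a mean of 1 CPM, and the highest, *C8g* and *C9*, had between 12 and 27 counts per library.

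**Figure D4:**
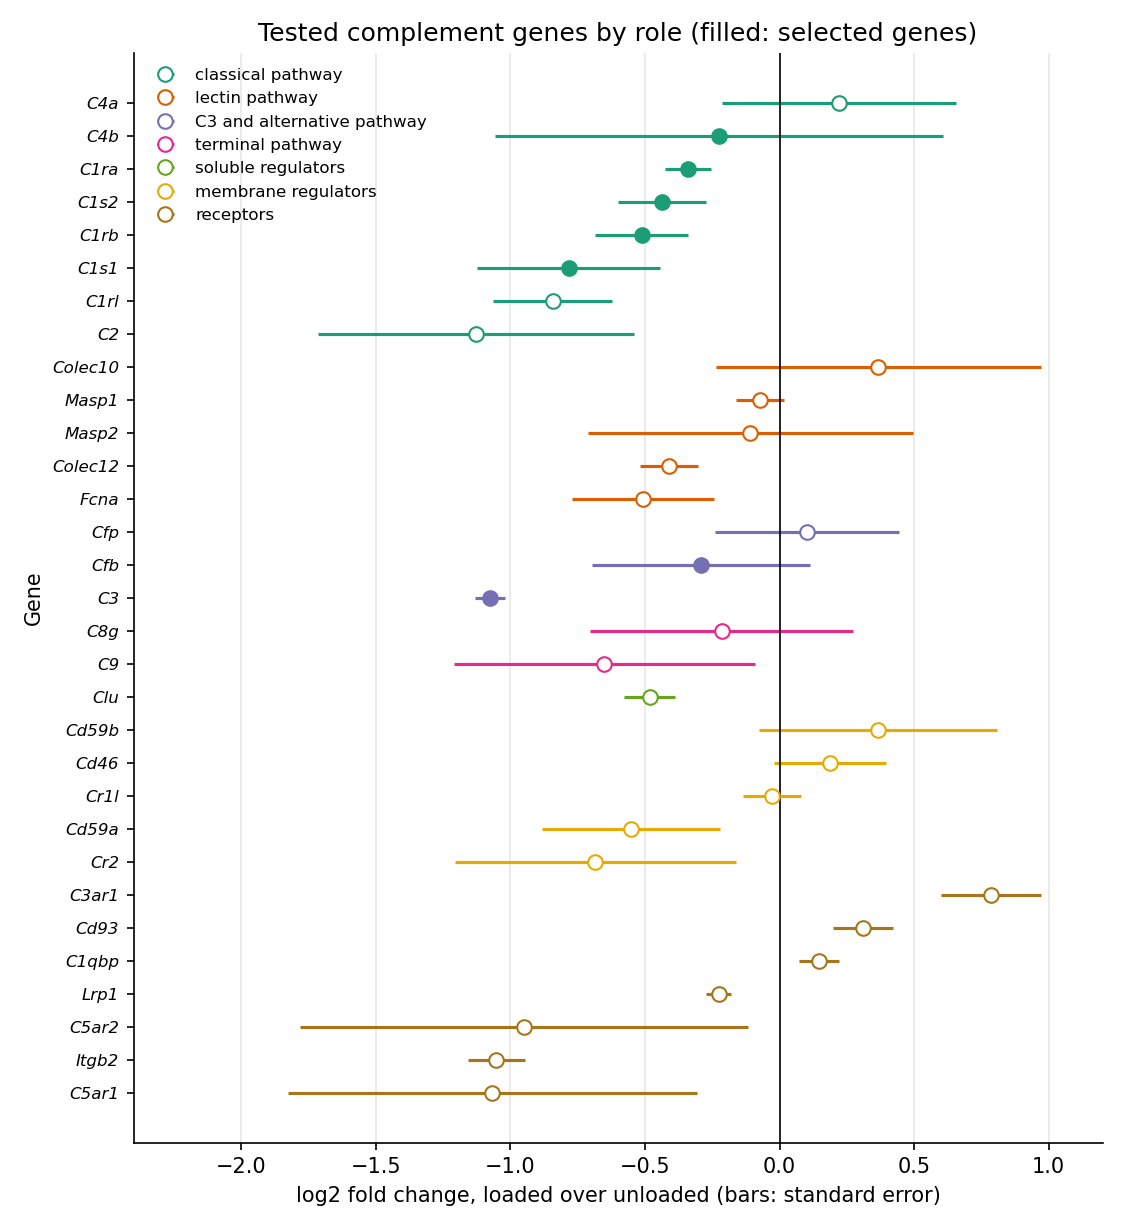
Log2 fold change of loaded over unloaded cells for complement genes that passed the filter (points) with its standard error (bars), coloured by role. Filled points are the 7 genes of the selected 9 that passed the filter, which share a negative sign, and open points are other complement genes, among them *C2* at -1.13, *Itgb2* at -1.05 and *C3ar1* at 0.79.

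Genes that encode known inducers of complement transcription, including cytokines, their receptors and transcription factors, were examined as a list of 18, of which 15 were tested. Of the 15, 9 had a negative and 6 a positive log2 fold change. None was called by edgeR at an adjusted p under 0.01, and 4 had an unadjusted p under 0.05, beside 14.3% of all genes tested. DESeq2 called 3 of the 14 to which it gave an adjusted p, all lower in loaded cells, beside 1.55% of its genes. Among these were *Ifngr1* and *Irf1*, which act in the response to interferon gamma. *Ifngr1*, a chain of the receptor, had 1075 and 1470 counts in unloaded and 548 and 749 counts in loaded libraries, without overlap. Its log2 fold change was -1.02 (SE 0.22), with an adjusted p of 0.127 in edgeR and 1.2e-04 in DESeq2. *Irf1*, a transcription factor, had 2196 and 3174 counts in unloaded and 1997 and 1802 counts in loaded libraries. Its log2 fold change was -0.56 (SE 0.16), with an adjusted p of 0.193 in edgeR and 0.00891 in DESeq2. The interferon gamma gene *Ifng* itself had 2 counts in 1 library. *Il6*, which encodes interleukin-6, pointed the other way, with 23 and 33 counts in unloaded and 74 and 53 counts in loaded libraries. Its log2 fold change was 1.11 (SE 0.39), with an adjusted p of 0.288 in edgeR and none given by DESeq2. The 3 most abundant inducer genes were *Il6st*, the shared receptor chain of interleukin-6 cytokines, at 353 ± 60.2 and 362 ± 47.8 CPM, *Nfkb1* at 167 ± 14.6 and 152 ± 0.447 CPM, and *Rela* at 137 ± 5.71 and 145 ± 19.0 CPM in unloaded and loaded cells, with adjusted p of 0.942, 0.491 and 0.801 in edgeR.

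The 5 genes whose pattern over the 4 libraries was most like that of *C3*, by the distance between centred log2 CPM values, were *Mapre2*, *Lpcat1*, *Oas1g*, *Tgtp2* and *Gbp4*, at distances of 0.0576, 0.0788, 0.0820, 0.0932 and 0.0950. Their log2 fold changes ran from -1.17 to -1.06. They were chosen for this likeness among genes with a mean of at least 10 CPM, so their fold changes were not tested.

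The markers of the cell type were present only in part. Among 8 osteocyte markers *Gja1*, *Pdpn* and *Phex* were the most abundant, at 516, 184 and 47.7 CPM on average, while *Mepe* was at 0 and *Sost* had 4 counts in 1 library. *Pdpn*, which encodes podoplanin, was at 147 ± 5.73 CPM in unloaded and 222 ± 9.13 CPM in loaded cells (SD, n = 2 each), a log2 fold change of 0.59 (SE 0.07), with an adjusted p of 0.0334 in edgeR and 2.2e-08 in DESeq2. Of the 8 osteoblast markers, *Col1a2*, *Col1a1* and *Spp1* were the most abundant and *Ibsp* was at 0. *Spp1*, which encodes osteopontin, was at 407 ± 2.24 CPM in unloaded and 287 ± 20.3 CPM in loaded cells (n = 2 each), a log2 fold change of -0.50 (SE 0.07), with an adjusted p of 0.0405 in edgeR and 9.43e-07 in DESeq2. The log2 fold changes of *Col1a2* and *Col1a1* were -0.10 and -0.09, with adjusted p of 0.560 and 0.534 in edgeR. Macrophages also make C3 and carry *Itgb2*, so 8 macrophage markers were counted. *Tyrobp* was at 0, and *Ptprc* and *Adgre1* had at most 4 counts in any library, while *Csf1r* stood at 1573, 1584, 1558 and 1562 CPM in unloaded and loaded replicates 1 and 2. The 8 markers summed to between 1643 and 1653 CPM in unloaded and between 1611 and 1617 CPM in loaded cells, most of it *Csf1r*. In all 5 macrophage markers that passed the filter, both loaded libraries lay below both unloaded libraries, beside 24.5% of all genes tested. The log2 fold changes were -0.80 for *Cd68*, -0.42 for *Mrc1*, -0.34 for *Lyz2*, -0.33 for *Cd14* and -0.02 for *Csf1r*. None of them was called by edgeR, beside 0.0983% of all genes tested. DESeq2, which gave *Lyz2* no adjusted p, called none either, beside 1.55% of its genes called lower. In edgeR 2 of the markers had an unadjusted p under 0.05, beside 14.3% of all genes tested. The part of these marker differences in the values of *C3* and *Itgb2* was not tested. Of the 5 endothelial markers *Tie1* was at 0, and their sum was 2.18 to 3.37 CPM in unloaded and 1.71 to 2.91 CPM in loaded cells.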

How the data were processed

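RNA-seq counts of MLO-Y4 cells (2 unloaded and 2 loaded libraries) were analysed. The authors aligned trimmed reads to mm10 with HISAT2 (version 2.1.0), assembled transcripts with StringTie (version 1.3.5) and deposited whole-number counts per gene from prepDE, without normalization. The conversion of coverage to counts can divide reads between near-identical or overlapping genes. Strandedness is not given in the sources used here. Identifiers matched GENCODE M21 (GRCm38), which gave coordinates and exon lengths for TPM. Totals were 28941994 to 32185693 counts per library.

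Genes were filtered with filterByExpr (count minimum 10), scaled by TMM and fitted with group as the only term in edgeR 4.0.16 (R 4.3.3), whose quasi-likelihood F test was used. P-values were adjusted by Benjamini-Hochberg over 16269 genes, with a threshold of 0.01 as in the study. The test was checked on simulated data. Standard errors are the log2 fold change divided by the square root of F. DESeq2 1.42.0, RLE factors, other filters, a threshold of 0.05, a replicate block and leaving out each library were alternatives. Summed counts and a minimum of 1 CPM were added after seeing the data.

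The 9 genes, the lists and the motifs were chosen with earlier results of these data known. Named beside them were other complement genes with an adjusted p under 0.01 in edgeR or DESeq2, the 2 most abundant others in each role list, the 3 most abundant genes of the inducer and marker lists with those at 0, and the 5 genes closest to *C3* in log2 CPM (prior count 2). Genes outside this rule were named after their values were seen. They were *C3ar1*, *C4a*, *Gm20547*, *Ifngr1*, *Irf1*, *Ifng*, *Il6*, the C1q genes, *Cfi*, *Vtn*, *Itgam*, *Itgax*, *Sost*, *Ptprc*, *Adgre1*, *Cd68*, *Lyz2*, *Cd55b* and *Susd4*. Some genes that enter the counts of these lists are not reported here.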

Additional observations from a re-analysis of the deposited data

How the results depend on the processing

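The count of the 9 selected genes called by edgeR was 1 (*C3*). It stayed at 1 with RLE factors, with at least 10 counts in every library and with DESeq2. Without a filter on low counts it was 0. Nothing is read from this count, because the same contrast was known when the genes were selected. When 1 library was left out, the log2 fold change of *C3* was between -1.08 and -1.07. In such fits the lone library was assumed to vary like the other group. The count of other complement genes called was 0, but 3 with DESeq2 (among them *Clu* and *Itgb2*) and 2 at an adjusted p under 0.05 (among them *Itgb2*). Over all genes, edgeR called 2 higher and 14 lower, or 4 and 25 with at least 10 counts in every library, DESeq2 called 170 and 193, and edgeR without a filter called 0. The median difference between the log2 fold change of *C3* and those of the other 6 that passed the filter was -0.69, and -0.74 to -0.28 when 1 library was left out, the smallest size being that without loaded replicate 1. The log2 fold change of *C4b* reversed to 0.41 and that of *Cfb* to 0.17 without loaded replicate 2, and that of *C4b* to 0.15 with *C4a* added. Their leave-one-out ranges were -1.44 to 0.41 and -0.99 to 0.17. The causes were not tested. In a fit with a replicate block, 0 of the selected genes were called, and 0 of all genes. Same-numbered libraries did not deviate together (correlation -0.0570), so the numbers were not taken as pairs. Depth limits *C4b*, with at most 16 counts in a library.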
